A study of Mus musculus with 6 samples.

Results

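Neutrophils of the mouse 4T1 model were taken as the barcodes with at least 300 genes, at most 20% mitochondrial UMIs (unique molecular identifiers, each counted as 1 RNA molecule) and at least 200 S100a8 and S100a9 UMIs per 10000. The rule gave 1068 barcodes of 42259 that met the first 2 conditions, or 2.53%. They were split by the granule genes Ngp, Camp and Ltf into 66 granule-rich barcodes, with at least 20 UMIs of these genes per 10000, and 1002 granule-poor barcodes. S100a8, S100a9, Ngp, Camp and Ltf were the values the barcodes were chosen by, so their levels in these contrasts describe the choice and are not findings. The same holds for every gene compared between neutrophils and other barcodes, or between granule-rich and granule-poor barcodes, and no test is given for them.

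The study made droplet single-cell libraries, 3 from a line labelled shPgk1 and 3 from a line labelled shNC. Both lines derive from 4T1, a breast tumour line of mouse origin that lacks hormone receptors and serves in work on triple-negative disease. The line labelled shPgk1 carried a lentiviral short hairpin RNA (shRNA) directed at Pgk1, which encodes the glycolytic enzyme phosphoglycerate kinase, and the shNC line carried a control hairpin with no intended target. In both groups transduction lasted 48 h, and puromycin at 2 µg/mL then removed untransduced cells over 7 days. The hairpins were thus placed in the tumour cells, not in neutrophils. The labels give no host animal, age, sex or time in a host, do not say that replicates came from separate animals, and do not name neutrophils. The p-values below therefore measure the spread between these libraries, which may be technical.

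Neutrophils are short-lived white blood cells that are made in the bone marrow and pass through stages marked by the granules they fill. Primary granule proteins such as myeloperoxidase and elastase are made first, and specific granule proteins such as lactoferrin (Ltf), cathelicidin (Camp) and neutrophilic granule protein (Ngp) next. These transcripts are then shut off, and mature cells carry chemokine receptors, Fc receptors and inflammatory cytokines. S100a8 and S100a9 encode the subunits of calprotectin, the main cytosolic protein of neutrophils. 4T1 tumours are known for a strong expansion of granulocytes in the host.

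The upstream stretches of the genes that defined the members and split their state are shown because the whole description rests on these genes. They run 250 bases up to the annotated start, 5′ to 3′, from RefSeq on GRCm38.p6, and all 5 genes were matched by symbol. Ngp lies at chr9:110419558-110419807, plus strand, Camp at chr9:109849457-109849706, minus strand and Ltf at chr9:111019042-111019291, plus strand. S100a8 lies at chr3:90668821-90669070, plus strand and S100a9 at chr3:90695722-90695971, minus strand. Capitals mark the letters TTGCNNAA on either strand, a form of the motif bound by C/EBP factors, which are known regulators of granulocyte genes.
Ngp: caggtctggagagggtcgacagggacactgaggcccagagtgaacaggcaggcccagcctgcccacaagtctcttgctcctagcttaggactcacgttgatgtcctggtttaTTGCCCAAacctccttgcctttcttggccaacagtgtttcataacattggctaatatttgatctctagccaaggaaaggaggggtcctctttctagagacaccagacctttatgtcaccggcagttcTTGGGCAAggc
Camp: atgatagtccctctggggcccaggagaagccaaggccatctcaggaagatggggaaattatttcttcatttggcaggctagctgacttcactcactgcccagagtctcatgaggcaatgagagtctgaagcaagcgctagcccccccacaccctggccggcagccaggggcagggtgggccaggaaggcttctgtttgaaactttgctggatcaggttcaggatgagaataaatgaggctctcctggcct
Ltf: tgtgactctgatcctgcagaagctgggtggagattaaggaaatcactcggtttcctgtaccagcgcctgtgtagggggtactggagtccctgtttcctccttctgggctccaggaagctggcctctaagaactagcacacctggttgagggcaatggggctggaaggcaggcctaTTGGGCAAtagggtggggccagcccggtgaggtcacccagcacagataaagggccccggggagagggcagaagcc
S100a8: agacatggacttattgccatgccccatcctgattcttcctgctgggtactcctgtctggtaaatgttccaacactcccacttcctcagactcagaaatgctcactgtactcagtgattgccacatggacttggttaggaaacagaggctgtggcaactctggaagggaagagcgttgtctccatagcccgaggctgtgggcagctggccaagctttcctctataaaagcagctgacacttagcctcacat
S100a9: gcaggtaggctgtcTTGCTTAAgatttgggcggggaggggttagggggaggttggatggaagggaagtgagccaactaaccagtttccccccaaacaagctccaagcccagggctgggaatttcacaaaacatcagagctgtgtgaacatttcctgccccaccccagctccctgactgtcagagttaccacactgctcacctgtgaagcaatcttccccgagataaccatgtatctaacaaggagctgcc
The motif was found in the windows of Ngp, Ltf and S100a9 and not in those of Camp and S100a8. It occurred in 9.56% of the 32851 RefSeq windows of this length. A match describes letters and not a bound site.

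The barcodes carried the defining markers of neutrophils. Summed S100a8, S100a9, Retnlg, G0s2, Wfdc21, Csf3r, Cxcr2, Ly6g, Mmp8, Mmp9, Il1r2 and Hdc stood at 133400, 142000 and 122100 CPM (counts scaled to a common library total) in neutrophils of libraries 1 to 3 labelled shPgk1. They stood at 146000, 158700 and 132000 CPM in neutrophils of shNC libraries 1 to 3. S100a8 and S100a9 averaged 60460 and 68380 CPM of a mean sum of 139000 CPM. The sum therefore mostly restates the rule. All 12 were higher in neutrophils than in the other barcodes, S100a8 and S100a9 by the choice. Retnlg, a resistin-like secreted protein, averaged 2582 CPM in neutrophils against 4.16 CPM in the other barcodes, and Wfdc21, a secreted WAP-domain protein, 1888 against 4.24 CPM. Beside the genes of the rule, the leading genes of the neutrophils were the cystatin or stefin A genes Cstdc5, Cstdc4, Stfa2l1, Stfa2 and Stfa3, the G0/G1 switch gene G0s2, the protease gene Asprv1 and Hdc, which makes histamine. Cstdc and Stfa genes are near-identical copies, so the way shared reads were counted could split them. That counting was not given in the sources used here, and their values are uncertain.

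Markers of other cell types were also present. The 8 macrophage markers summed to 2781, 2898 and 3463 CPM in neutrophils labelled shPgk1 and to 3496, 5333 and 3953 CPM in shNC neutrophils, between 25.8 and 48.3% of the level in the other barcodes of the same library. The 5 epithelial keratin and Epcam markers summed to 931, 888 and 1083 CPM in neutrophils labelled shPgk1 and to 675, 472 and 639 CPM in shNC neutrophils. Per barcode, macrophage markers had a median of 21.5 per 10000 UMIs in granule-rich and 27.3 in granule-poor neutrophils, and 23.8 in the other barcodes. The 4 monocyte markers averaged 179 CPM in neutrophils and 172 CPM in the other barcodes, from 56.6 to 224.7% of the level in the other barcodes by library, and 2 of the 4 were higher in neutrophils. Of 3 eosinophil markers Epx and Prg2 had no UMI in any neutrophil, while the other was higher than outside, so that the sum averaged 3.58 CPM in neutrophils and 0.447 CPM in the other barcodes. The mast cell gene Ms4a2 had no UMI in any neutrophil. At the edge of the rule, 77 barcodes held 200 to 250 and 98 held 150 to 200 S100a8 and S100a9 UMIs per 10000. Retnlg stood at 233 CPM just inside and 222.6 CPM just outside the limit, against 2643 CPM over all members pooled. G0s2 stood at 2313 CPM just inside and 1140.0 CPM just outside, against 2327 CPM over all members, and Wfdc21 at 349 and 257 against 1986 CPM. C1qa, a macrophage complement gene, stood at 635, 652 and 556 CPM in the same 3 sets.

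Neutrophils were shallow. Their median was 1828 UMIs and 781 genes, against 10450 UMIs and 2541 genes in the other barcodes, and the shallowest had 1005 UMIs. Total counts per library ran from 111982862 to 128933960 in libraries labelled shPgk1 and from 78778073 to 113157507 in shNC. The neutrophil sums held 75157, 416516 and 394415 UMIs in libraries 1 to 3 labelled shPgk1 and 1033173, 830265 and 724282 UMIs in shNC libraries 1 to 3. Library 1 labelled shPgk1 stood apart, with 32 neutrophils and 1 granule-rich barcode that alone held 19.3% of its neutrophil UMIs. Pgk1, the targeted gene, did not separate the groups. It stood at 213, 278.5 and 352 CPM in neutrophils of libraries labelled shPgk1 and at 269, 226 and 315 CPM in shNC neutrophils (log2 fold 0.08 ± 0.20 SE). In the other barcodes, which include the tumour cells, it stood at 324, 324 and 348.5 CPM against 350.3, 341 and 313 CPM. The libraries are therefore named by their label.

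Neutrophils were a lower share of the barcodes in each library labelled shPgk1 than in each shNC library. There were 32, 149 and 134 neutrophils among 6708, 7419 and 7391 kept barcodes in libraries labelled shPgk1, and 327, 233 and 193 among 7696, 6203 and 6842 in shNC. The shares were 0.477% (95% Wilson interval 0.338 to 0.673), 2.01% (1.71 to 2.35) and 1.81% (1.53 to 2.14) in libraries labelled shPgk1. They were 4.25% (3.82 to 4.72), 3.76% (3.31 to 4.26) and 2.82% (2.45 to 3.24) in shNC. The groups did not overlap, and library 1 labelled shPgk1 was lowest. The means were 1.43 ± 0.83% labelled shPgk1 and 3.61 ± 0.73% in shNC (SD, n = 3 each), a difference of −2.18 points. In a two-sided exact permutation test p was 0.1, and 3 against 3 can give no smaller value. Without library 1 labelled shPgk1 the difference was −1.70 points. Intervals cover counting error only, and fewer neutrophils cannot be told apart from more barcodes of other kinds. The shallowest kept barcodes had 1005 UMIs in neutrophils and 1001 in the others. By library 28.3 to 41.0% of neutrophils lay under 1500 UMIs, against 3.53 to 4.62% of the others. Neutrophils shallower than the deposited barcodes could not be counted, and their part in the shares was not tested.

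**Figure D1:**
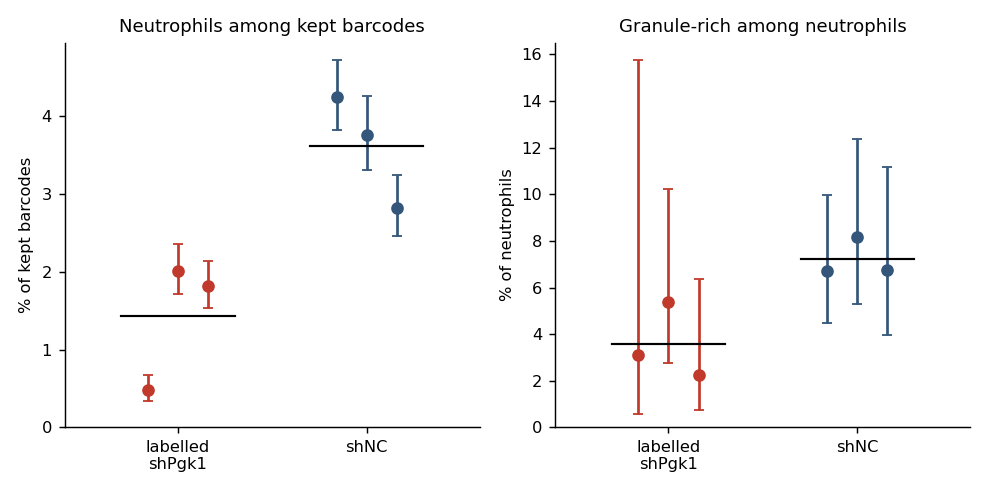
Left, neutrophils as a percentage of kept barcodes. Right, granule-rich barcodes as a percentage of neutrophils. Each point is a library with its 95% Wilson interval and each black line the mean of 3 libraries, labelled shPgk1 at left and shNC at right. In both panels the 3 points labelled shPgk1 lie below the 3 shNC points, and the granule-rich interval of library 1 labelled shPgk1 is the widest, from 0.554 to 15.7%.

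The granule-rich share of neutrophils was likewise lower in each library labelled shPgk1 than in each shNC library. The state was found in 1 of 32, 8 of 149 and 3 of 134 neutrophils labelled shPgk1, and in 22 of 327, 19 of 233 and 13 of 193 shNC neutrophils. The shares were 3.12, 5.37 and 2.24% labelled shPgk1 and 6.73, 8.15 and 6.74% in shNC. The groups did not overlap, though the Wilson intervals of single libraries did. The means were 3.58 ± 1.61% labelled shPgk1 and 7.21 ± 0.82% in shNC (SD, n = 3 each), a difference of −3.63 points (two-sided exact permutation test, p = 0.1, the smallest possible). Adjusted over the 2 shares tested, both p-values stayed at 0.1. The median depth of a neutrophil was 1648, 1787 and 1590 UMIs labelled shPgk1 and 1822, 1897 and 1932 UMIs in shNC. With every neutrophil thinned to 1000 UMIs the granule-rich shares were 6.25, 4.70 and 4.48% labelled shPgk1 and 8.26, 9.44 and 7.77% in shNC. The groups again did not overlap. Outside the neutrophils 0, 1 and 2 barcodes in libraries labelled shPgk1 and 0, 2 and 1 in shNC passed the same granule limit. Among granule-poor neutrophils 13.3% had any Ngp, Camp or Ltf UMI at a median of 1758 UMIs, against 11.9% of the other barcodes at a median of 10450 UMIs. Near the split lay 6 barcodes at 20 to 25 and 11 at 15 to 20 granule UMIs per 10000.

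The 2 states differed in many genes that the rule did not use. Granule-rich neutrophils held the further specific granule genes, whose 14 listed members were all higher than in granule-poor neutrophils. Their sum was 23590 CPM in granule-rich and 3654 CPM in granule-poor barcodes, pooled over libraries, a ratio of 6.46. Lcn2, which encodes the iron-binding lipocalin-2, stood at 9210 against 1142 CPM. Pglyrp1, a peptidoglycan recognition protein, stood at 3316 against 422 CPM, and the neutrophil surface genes Cd177 and Ly6g at 1186 against 85.7 CPM and 619 against 44.4 CPM. These 4 genes were higher in the granule-rich barcodes of all 4 libraries that had at least 5 of them. Hp, which encodes haptoglobin, stood at 2223 against 703 CPM, and Anxa1, the annexin that restrains neutrophil recruitment, at 1947 against 304 CPM. Cebpe, the C/EBP factor of late granulocyte differentiation, stood at 92.2 CPM on 63 UMIs, against 6.45 CPM. Other leading genes of the granule-rich state were Ifitm6, the elastase inhibitor gene Serpinb1a, Stfa3, the granule protein gene Olfm4, Lta4h, which makes leukotriene B4, and Aldh2.

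Granule-poor neutrophils held higher levels of most listed genes of mature and activated cells. Of the 18 listed mature neutrophil genes 15 were higher in granule-poor barcodes, and their sum was 30340 CPM there, against 17440 CPM in granule-rich barcodes. Il1b, the inflammatory cytokine, stood at 6413 CPM in granule-poor and 1553 CPM in granule-rich barcodes, and Csf3r, the receptor for granulocyte colony-stimulating factor, at 684 against 190.1 CPM. Srgn, the granule proteoglycan serglycin, stood at 4946 against 1681 CPM, and Isg15, an interferon-induced modifier, at 2154 against 357 CPM. All 18 listed NF-kB targets and components were higher in granule-poor barcodes, led in the sum by the chemokine gene Cxcl2 at 13020 against 2994 CPM. All 16 tumour-associated neutrophil genes and all 10 immediate early genes were higher there too, and so were all 10 heat shock genes. Only 3 of 18 glycolysis and 2 of 18 interferon-stimulated genes were higher in granule-rich barcodes. The primary granule, specific granule and NADPH oxidase lists went the other way, the last with 5 of 7 genes. Many lists thus leaned to granule-poor barcodes, so these counts are not particular to activation. The share over all genes was not counted. The leading genes of the state were the acute phase gene Saa3 (858 against 48.3 CPM), the chemerin-binding receptor gene Ccrl2 (1740 against 121 CPM), the inflammasome sensor gene Nlrp3 (621.5 against 57.0 CPM) and Hcar2, a hydroxycarboxylic acid receptor (1353 against 142 CPM). The stress-response genes Ppp1r15a, Gadd45b and Ddit3 and the chemokine gene Ccl3 followed. Each was lower in the granule-rich barcodes of all 4 libraries compared. Retnlg was among the 3 mature genes with the opposite order, at 2130 CPM in granule-poor and 4739 CPM in granule-rich barcodes.

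These differences were set beside depth. Granule-rich barcodes had a median of 8343 UMIs, against 1758 in granule-poor ones, and held 19.7% of all neutrophil UMIs although they were 6.18% of the barcodes. S100a8 and S100a9 took 29.5% of their UMIs, against 9.25% in granule-poor barcodes. Leaving both genes out of the totals multiplies every granule-rich over granule-poor ratio by 1.29 and turned the direction of 0 of the 30 leading genes. Thinned to 1000 UMIs, Lcn2 was seen in 98.5% of granule-rich, 43.3% of granule-poor and 13.04% of other barcodes. Cd177 was seen in 62.1, 5.99 and 0.115% of the same sets, and Il1b in 42.4, 90.0 and 38.6%. Without thinning the shares were 100, 57.0 and 52.1% for Lcn2, 87.9, 11.6 and 0.901% for Cd177, and 87.9, 94.9 and 84.3% for Il1b. The order of the 2 states turned for other genes. Cxcr2 was seen in 71.2% of granule-rich and 39.0% of granule-poor neutrophils without thinning, and in 19.7 and 25.3% after it. Csf3r was seen in 75.8 and 69.7% without thinning and in 21.2 and 51.5% after it, and G0s2 in 84.8 and 74.1% and then in 59.1 and 64.2%, granule-rich first each time. The thinned orders were those of the CPM in these 3 genes. The 94 granule-poor barcodes above 5000 UMIs were unlike the rest, with macrophage markers at 6698 CPM and the mature list at 18680 CPM, against 3003 and 37310 CPM in the 908 shallower ones. Of these 94, 16 had a Scrublet doublet score over 0.25, against 6 of the 908 and 0 of the 66 granule-rich barcodes.

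**Figure D2:**
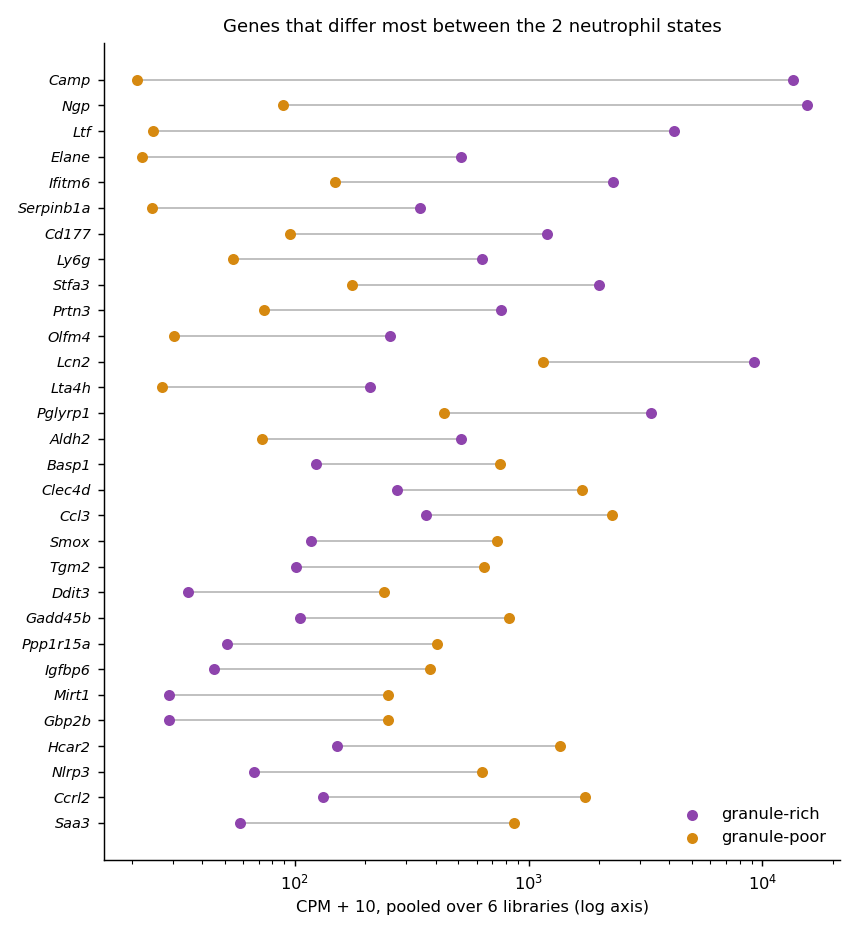
The 15 leading genes of each state, with the pooled level in granule-rich (purple) and granule-poor (orange) neutrophils as CPM + 10 on a log axis. Camp, Ngp and Ltf defined the split. The upper 15 genes include Lcn2 at 9210 against 1142 CPM and the lower 15 include Saa3 at 48.3 against 858 CPM, granule-rich first.

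Primary granule RNA, the mark of the earliest stage, came from very few barcodes. The 6 genes Mpo (myeloperoxidase), Elane (neutrophil elastase), Prtn3 (proteinase 3), Ctsg (cathepsin G), Ms4a3 and Prss57 together had 1, 4 and 1 UMIs in neutrophils labelled shPgk1 and 856, 6 and 535 UMIs in shNC neutrophils. Of the 1403 UMIs, 1353 (96.4%) lay in 5 barcodes with at least 20 each. In shNC library 1 these were 2 granule-rich barcodes, with 513 and 316 UMIs. In shNC library 3 they were 1 granule-rich barcode with 178 UMIs and 2 granule-poor barcodes with 325 and 21. The granule-poor barcode with 325 was the deepest of all neutrophils, at 83041 UMIs, and its calprotectin level of 322 per 10000 lay near the limit. In CPM the sums were 13.3, 9.60 and 2.54 in neutrophils labelled shPgk1 and 828.5, 7.23 and 739 in shNC neutrophils, where shNC library 2 lay within the range of the libraries labelled shPgk1. No gene of this list reached the level needed for the gene test.

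For the comparison of libraries labelled shPgk1 with shNC, the counts of all neutrophils were summed per library and 5059 genes were tested with the edgeR quasi-likelihood test. Of these, 2 passed an adjusted p of 0.05 (0.0395%), 1 higher (0.0198%) and 1 lower (0.0198%), and 351 had an unadjusted p below 0.05 (6.94%). DESeq2 called 9, and it gave no adjusted p for 4119 of the genes, Il2ra and Marf1 among them. The median log2 fold over all genes tested was −0.02, and 697 genes (13.8%) had groups that did not overlap, 393 of them higher (7.77%) and 304 lower (6.01%). Without shNC library 2 the count that passed was 9, and without any other single library it was 0 or 1. In the sums over granule-poor neutrophils alone, 4634 genes were tested with edgeR, 0 passed (0%) and 252 had an unadjusted p below 0.05 (5.44%), while DESeq2 called 4. There 560 genes (12.1%) had groups that did not overlap, 302 higher (6.52%) and 258 lower (5.57%), and 52.4% of folds lay below 0.

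The call that was higher was Il2ra, the alpha chain of the interleukin-2 receptor. It stood at 26.6, 36.0 and 40.6 CPM in neutrophils labelled shPgk1 and at 4.84, 1.204 and 4.14 CPM in shNC neutrophils, with no overlap. The values rest on 2, 15 and 16 UMIs labelled shPgk1 and on 5, 1 and 3 UMIs in shNC, and no UMI was in a granule-rich barcode. Il2ra reached the level needed for the gene test only in the libraries labelled shPgk1. The filter thus let it in by the group where it is high, and the lack of overlap is not a result. Il2ra rose by a log2 fold of 3.29 ± 0.57 (SE; edgeR, adjusted p = 0.0465). In the other barcodes it stood at 12.8, 7.65 and 9.37 CPM labelled shPgk1 and at 16.0, 16.2 and 11.5 CPM in shNC, and the difference between both folds was 4.00 ± 0.54 log2 (edgeR, adjusted p = 0.000463). The call was lost when any 1 of the 6 libraries was left out, with an adjusted p between 0.0653 and 0.462. No value was obtained for Il2ra with barcodes of a high Scrublet doublet score left out, or at a calprotectin limit of 400. The same held in granule-poor neutrophils without barcodes over 5000 UMIs. The call could therefore not be checked under these settings.

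The call that was lower was Marf1, a regulator of RNA stability known from mouse oocytes. It stood at 39.9, 19.2 and 30.4 CPM in neutrophils labelled shPgk1 and at 180.0, 114 and 73.2 CPM in shNC neutrophils, with no overlap. It fell by 2.28 ± 0.40 on the log2 scale (edgeR, adjusted p = 0.0465). Marf1 was also lower in the other barcodes, at 83.5, 41.3 and 39.0 CPM labelled shPgk1 against 125.6, 182 and 269.7 CPM in shNC. The difference between both folds was −0.30 ± 1.05 log2 (edgeR, adjusted p = 0.931). The call was lost without any 1 of the 3 libraries labelled shPgk1, without shNC library 1 and without shNC library 2, where the adjusted p was between 0.0508 and 0.331.

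Of the next 8 genes by p, 4 were higher and 4 lower in neutrophils labelled shPgk1, and none passed in edgeR. DESeq2 called 6 of these 8, with adjusted p of 0.00752 for Slc7a11, 0.0124 for Ngp, Col1a1 and Ccl8, 0.0299 for Nlrp3 and 0.0400 for Alcam. Its other 3 calls were Camp (0.00425), Saa3 (0.0124) and the stefin-family gene Csta3 (0.0443). Ngp and Camp are genes the states were split on, and granule-rich barcodes held their UMIs almost wholly. Their calls therefore restate the granule-rich share and are not separate findings. Lsmem1, a membrane protein gene, stood at 119.7, 72.0 and 112 CPM labelled shPgk1 and 32.9, 32.5 and 23.5 CPM in shNC (1.62 ± 0.30 log2; edgeR, adjusted p = 0.05 as rounded, above the limit before rounding). Slc7a11, the cystine transporter of glutathione synthesis, stood at 1317, 1145 and 991 CPM labelled shPgk1 and 680, 529 and 402 CPM in shNC (1.03 ± 0.20; edgeR, adjusted p = 0.0681). Nlrp3 stood at 665, 783 and 748 CPM against 474, 399.9 and 387 CPM, and the adhesion gene Alcam at 479, 473 and 472 CPM against 292, 250.5 and 258 CPM, labelled shPgk1 first. In all 4 genes the 3 libraries labelled shPgk1 lay above the 3 shNC libraries, as in 7.77% of all genes tested. They did so in granule-poor neutrophils too, as did 6.52% of the genes tested there. Those sums hold 80.3% of the same neutrophil UMIs. The 4 genes were named by small p in this comparison, so their separation restates the choice. On the lower side were Ngp, the collagen gene Col1a1, the chemokine gene Ccl8 and the matrix gene Tnc. Col1a1 stood at 159.7, 170.5 and 203 CPM in neutrophils labelled shPgk1 and 353, 276 and 544 CPM in shNC neutrophils. In the other barcodes it was higher, at 483, 723 and 751 CPM labelled shPgk1 and 1006, 1083 and 1537 CPM in shNC. The 4 fibroblast markers summed to 279, 334 and 380.3 CPM in neutrophils labelled shPgk1 and to 600.1, 499 and 999.6 CPM in shNC neutrophils. Ccl8 and Tnc were likewise more abundant outside the neutrophils in all 6 libraries, and the part of RNA from other cells in these 3 values was not tested.

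**Figure D3:**
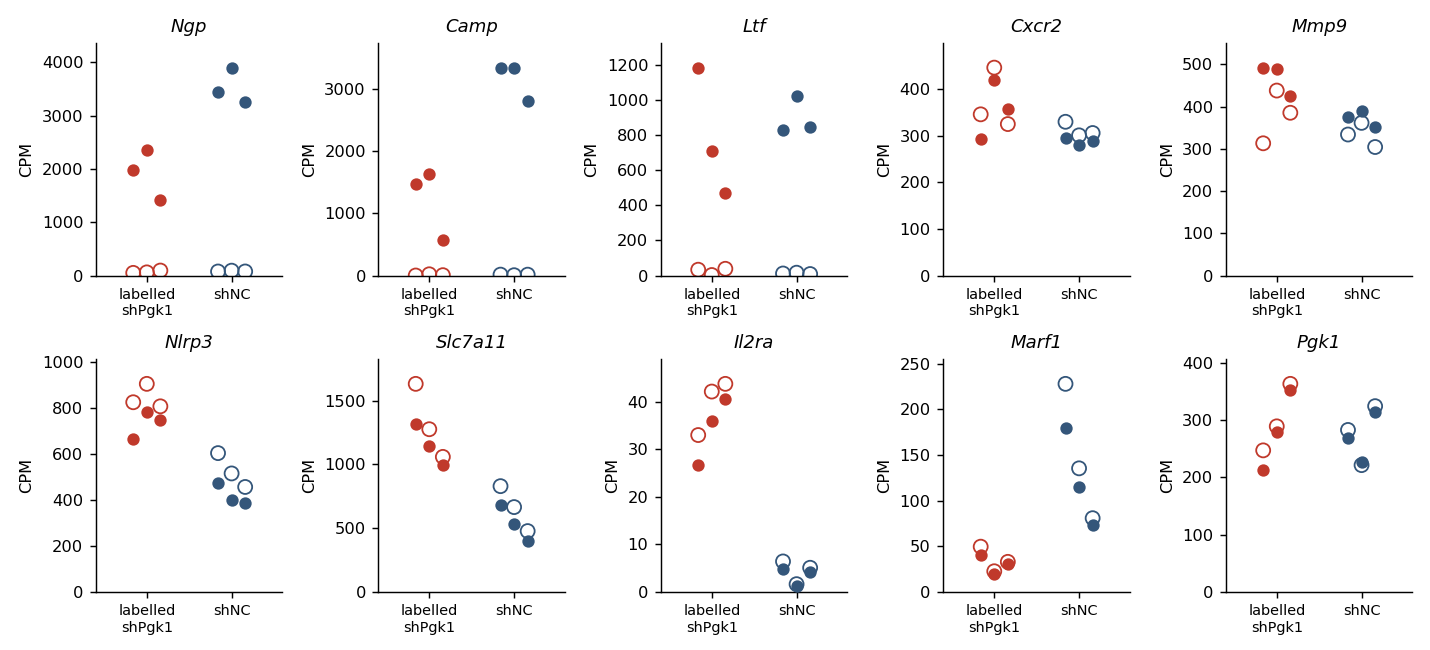
Levels of 10 genes in CPM by library, labelled shPgk1 at left (red) and shNC at right (blue). Filled points are sums over all neutrophils and open points sums over granule-poor neutrophils. Ngp, Camp and Ltf are near 0 in granule-poor sums. Il2ra, Marf1, Nlrp3 and Slc7a11 keep 2 separate groups of points in both sums, whereas Pgk1 overlaps. Il2ra, Marf1, Nlrp3 and Slc7a11 were named by small p in this comparison, so their separation is not a result.

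The granule genes of the rule were read almost wholly from granule-rich barcodes. Ngp stood at 1983, 2350 and 1412 CPM in neutrophils labelled shPgk1 and at 3435, 3900 and 3258 CPM in shNC neutrophils (−0.93 ± 0.19 log2; edgeR, adjusted p = 0.0814). Camp stood at 1477, 1637 and 578 CPM labelled shPgk1 and at 3332, 3342 and 2811 CPM in shNC (−1.42 log2; edgeR, adjusted p = 0.399). Both had groups that did not overlap. Ltf overlapped, at 1184, 711 and 469 CPM labelled shPgk1 and 830.5, 1024 and 846 CPM in shNC. In granule-poor neutrophils Ngp was at 49.4, 59.0 and 92.9 CPM labelled shPgk1 and at 75.2, 90.8 and 75.7 CPM in shNC, which overlapped, and the limit on granule-poor barcodes caps this level. Granule-rich barcodes held between 94.8 and 99.0% of the Ngp, Camp and Ltf UMIs of the neutrophils in each library. S100a8 overlapped, at 59460, 58630 and 52530 CPM labelled shPgk1 and 61510, 71480 and 59160 CPM in shNC. So did S100a9, at 65140, 71330 and 59490 CPM against 74530, 76710 and 63090 CPM.

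The other specific granule genes had folds of the same sign in the sums over all neutrophils. No member of any of the 16 lists was called by edgeR or DESeq2. All 11 tested members had a log2 fold below 0 (52.2% of all genes tested did), and 6 had groups that did not overlap (13.8% of all genes tested did). The median was −0.69, against −0.02 over all genes. Lcn2 stood at 1623, 2355 and 1415 CPM in neutrophils labelled shPgk1 and at 2724, 3700 and 2673 CPM in shNC neutrophils (−0.79 ± 0.20 log2; edgeR, adjusted p = 0.233). Lyz2, lysozyme, stood at 878, 1025 and 905 CPM against 1476, 1734 and 1193 CPM, and Cd177 at 133, 252 and 200.3 CPM against 288, 369 and 348 CPM. In granule-poor neutrophils 8 members were tested and their median was 0.02. The list sum was 4684, 6514 and 5104 CPM labelled shPgk1 and 7598, 9975 and 7058 CPM in shNC over all neutrophils, without overlap. Over granule-poor neutrophils it was 2637, 3866 and 3247 CPM against 3393, 4203 and 3645 CPM, which overlapped.

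The mature neutrophil genes had mostly the opposite sign. Of 18 mature neutrophil genes tested none passed, 16 had a log2 fold above 0 (47.8% of all genes tested did) and the median was 0.17. The list sum was 32040, 33300 and 29550 CPM in neutrophils labelled shPgk1 and 28220, 25340 and 25470 CPM in shNC neutrophils, without overlap. In granule-poor neutrophils it was 37510, 35350 and 30460 CPM against 32040, 27440 and 27330 CPM, which overlapped, with a median log2 fold of 0.18. Il1b stood at 7784, 6492 and 5733 CPM labelled shPgk1 and 6165, 3901 and 5244 CPM in shNC, with overlap. Ccrl2 stood at 1730, 2077 and 1729 CPM against 1498, 1241 and 942 CPM, without overlap (0.54 ± 0.18 log2; edgeR, adjusted p = 0.480). Retnlg and G0s2 overlapped, at 1943, 2960 and 2698 CPM against 2295, 2982 and 2614 CPM for Retnlg and at 2169, 3102 and 2163 CPM against 2605, 1804 and 2193 CPM for G0s2. Wfdc21, at 1450, 1993 and 1754 CPM against 1876, 2346 and 1908 CPM, overlapped as well.

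**Figure D4:**
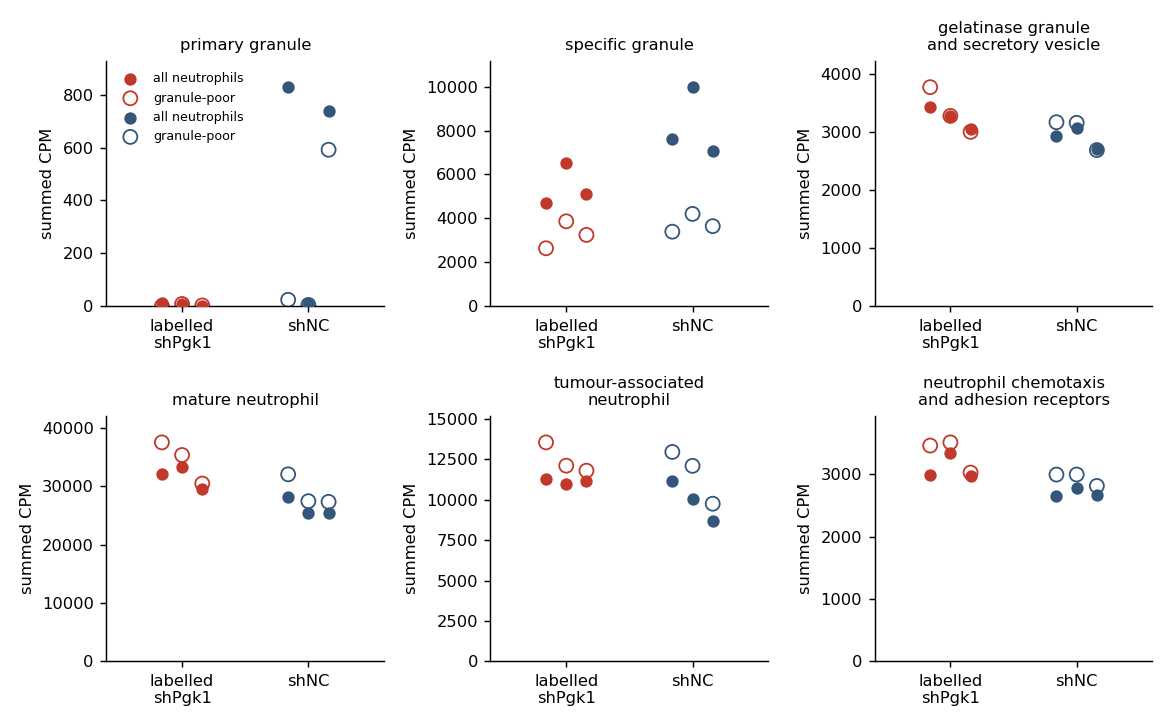
Summed CPM of 6 gene lists by library, labelled shPgk1 at left (red) and shNC at right (blue), over all neutrophils (filled) and granule-poor neutrophils (open). The specific granule sum is lower in every library labelled shPgk1 than in every shNC library for filled points and overlaps for open points. The primary granule sum is above 500 CPM in 2 shNC libraries only.

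Receptors and effector genes came next. Of 10 chemotaxis and adhesion receptors none passed, 9 had a fold above 0 and the median was 0.13. Cxcr2, the receptor through which neutrophils leave the marrow and enter tissue, stood at 293, 420.2 and 357.5 CPM in neutrophils labelled shPgk1 and at 296, 279 and 289.9 CPM in shNC neutrophils, which overlapped. Fcgr3, an Fc receptor for antibody-coated targets, at 585, 581 and 487 CPM against 496, 520.3 and 512 CPM, and C5ar1, the complement C5a receptor, at 106.4, 264 and 246 CPM against 163, 219 and 218 CPM, overlapped too. Of 10 gelatinase granule and secretory vesicle genes none passed (median 0.10). Among them Mmp9, gelatinase B, stood at 492, 489.8 and 426 CPM against 375, 389 and 351 CPM without overlap (0.28 ± 0.17 log2; edgeR, adjusted p = 0.793). The 7 NADPH oxidase genes, which make the oxidative burst, had none that passed (median −0.12), among them Cyba, a membrane subunit, at 1064, 879 and 897.5 CPM against 989, 1061 and 944 CPM. Of the 11 tested granulocyte transcription factors none passed either (median −0.01), and 4 had groups without overlap (13.8% of all genes tested did). Among the factors Cebpe stood at 13.3, 9.60 and 12.7 CPM labelled shPgk1 and 28.1, 22.9 and 31.8 CPM in shNC, without overlap. Cebpe was chosen after its values were seen and reached the level needed for the gene test only in shNC. Its lack of overlap is therefore not a result. It is a gene of the granule-rich state, and the part of the granule-rich share in its values was not tested. Klf2, a factor of quiescence and migration in T cells, stood at 506, 651 and 575.5 CPM against 353, 365 and 418 CPM, also without overlap (0.59 ± 0.17 log2; edgeR, adjusted p = 0.348).

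Genes of activation were next. None of the 15 tested tumour-associated neutrophil genes passed (median 0.04), and Spp1, osteopontin, at 532, 799.5 and 933 CPM labelled shPgk1 and 729, 951.5 and 641 CPM in shNC, overlapped. Cd274, which encodes PD-L1, stood at 1171, 444 and 596 CPM labelled shPgk1 and 755, 465 and 445 CPM in shNC, with overlap. None of the 13 tested myeloid suppressor genes passed (median 0.17). Clec4d, a C-type lectin receptor, stood at 1663, 1993 and 1630.0 CPM labelled shPgk1 and 1394, 1250.0 and 1089 CPM in shNC, without overlap (0.46 ± 0.16 log2; edgeR, adjusted p = 0.540). Among the same genes Arg2, an arginase, stood at 612, 519 and 560.3 CPM against 348, 389 and 363 CPM without overlap (0.56 ± 0.17 log2; edgeR, adjusted p = 0.368). The series title ties Pgk1 to the p65 subunit of NF-kB. Of 18 NF-kB targets and components none passed, 13 had a fold above 0 (47.8% of all genes tested did), 3 had groups without overlap (13.8% of all genes tested did) and the median was 0.20. Cxcl2 stood at 11230, 15310 and 12380 CPM labelled shPgk1 and 11550, 9491 and 8923 CPM in shNC, with overlap. Nfkbia, the inhibitor induced by NF-kB, stood at 4378, 3621 and 3552 CPM against 3744, 3097 and 2846 CPM, with overlap, and Rela, which encodes p65, at 173, 125 and 71.0 CPM against 129.7, 111 and 124 CPM. Of 10 immediate early genes, which are induced within minutes of stimulation or handling, none passed, 9 had a fold above 0, 7 had groups without overlap (13.8% of all genes tested did) and the median was 0.38. Junb stood at 2847, 2852 and 2652 CPM against 2372, 2099 and 1921 CPM, and Dusp1, a phosphatase of the MAP kinase pathway, at 945, 759 and 811 CPM against 504, 605 and 530.2 CPM (0.55 ± 0.17 log2; edgeR, adjusted p = 0.372). The immediate early sum was 8542, 8060 and 7665 CPM labelled shPgk1 and 5740, 5898 and 6191 CPM in shNC.

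The remaining lists held no gene that passed. The 17 tested glycolysis genes, the pathway of Pgk1, had a median of 0.03, and their sums, Pgk1 included, were 8143, 9013 and 8805 CPM in neutrophils labelled shPgk1 and 7985, 8356 and 9053 CPM in shNC neutrophils. The 15 tested interferon-stimulated genes had a median of 0.12, with Ifitm3 at 2155, 2197 and 2832 CPM against 2326, 2052 and 2093 CPM, and the 11 survival and death genes one of −0.05. Mcl1, which sustains neutrophil survival, stood at 1770, 1270 and 1184 CPM against 980, 985 and 1138 CPM, without overlap (0.38 ± 0.17 log2; edgeR, adjusted p = 0.681). The 9 tested heat shock genes had a median of −0.31. Hspa1a, an inducible chaperone gene with the near-identical copy Hspa1b, stood at 146, 156 and 119.2 CPM labelled shPgk1 and 152, 335 and 334 CPM in shNC, with overlap. The 9 tested proliferation genes had a median of −0.62, and Hmgb2, a chromatin protein of dividing and immature cells, stood at 279, 350.5 and 355 CPM against 495, 414 and 747 CPM, without overlap (−0.74 ± 0.21 log2; edgeR, adjusted p = 0.301). The proliferation sum was highest in shNC library 3, at 1314 CPM, against 585 to 841 CPM in the other 5 libraries. Granule-poor barcodes of 83041 and 33004 UMIs, among the 724282 neutrophil UMIs of that library, carried 20 and 7 UMIs of the proliferation marker Mki67. The part of single deep barcodes in its values was not tested.

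In granule-poor neutrophils the 10 genes with the smallest p were Il2ra, Marf1, Ccl8, Lsmem1, Col1a1, Tnc, AY036118, Gm14015, Slc7a11 and Saa3, and none passed in edgeR. DESeq2 called 4 of them, Marf1 with an adjusted p of 0.0170 and Il2ra, Ccl8 and Gm14015 with 0.0313. Il2ra reached the level needed for the gene test only in the libraries labelled shPgk1. Gm14015, absent from those, reached it only in shNC. The filter thus let both genes in by the group where they are high. Saa3 stood at 758, 1892 and 1238 CPM labelled shPgk1 and 543, 498.5 and 810.3 CPM in shNC (1.10 ± 0.27 log2; edgeR, adjusted p = 0.356), with overlap. Slc7a11 stood at 1631, 1275 and 1058 CPM against 828, 664 and 476 CPM, without overlap (0.93 ± 0.22 log2; edgeR, adjusted p = 0.265). AY036118, a ribosomal-RNA-like transcript, stood at 20800, 17220 and 18050 CPM labelled shPgk1 and 24430, 30140 and 30320 CPM in shNC. It differed the same way in the other barcodes, at 22480, 18220 and 19250 CPM against 24910, 31770 and 32340 CPM. With the 94 barcodes over 5000 UMIs left out, an alternative chosen after the data were seen, 0 of 3130 genes passed and 214 had an unadjusted p below 0.05.

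A last comparison asked whether the fold between groups differed between neutrophils and the other barcodes, with library as a term. Of 5059 genes 112 passed (2.21%), 106 with a fold that was higher in neutrophils (2.1%) and 6 with one that was lower (0.119%). For all 106 the fold in the other barcodes was below 0, and for 99 the fold in neutrophils was above 0. In neutrophils on their own edgeR called 1 of the 112, Il2ra, and DESeq2 called 3, Camp, Slc7a11 and Nlrp3. Slc7a11 gave a difference of 1.51 ± 0.20 log2 (edgeR, adjusted p = 0.000463). It stood at 37.5, 34.2 and 39.9 CPM in the other barcodes labelled shPgk1 and at 81.9, 44.2 and 39.95 CPM in those of shNC, against the neutrophil levels given above. Xylt1, a xylosyltransferase of proteoglycan synthesis, stood at 506, 394 and 401 CPM in neutrophils labelled shPgk1 and 237, 272 and 231 CPM in shNC neutrophils (difference 1.59 ± 0.21 log2; edgeR, adjusted p = 0.000463). On the lower side Lcn2 gave −1.43 ± 0.26 log2 (edgeR, adjusted p = 0.0129). In the other barcodes, where tumour cells may carry it, Lcn2 stood at 241, 290.1 and 275 CPM labelled shPgk1 and 216, 148 and 191 CPM in shNC. Lcn2 is also a gene of the granule-rich state, and the part of the granule-rich share in this difference was not tested.

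The level of neutrophil RNA outside the neutrophils moved with this comparison. S100a8 and S100a9 together stood at 31.1, 123 and 100.5 CPM in the other barcodes labelled shPgk1 and at 355, 337 and 304.5 CPM in those of shNC, in the order of the neutrophil shares. Of the 106 genes 78 had at least 4 times the level in neutrophils that they had in the other barcodes, as did 459 of all 5059 genes tested (9.07%), and 47 were lower in the other barcodes at an adjusted p below 0.05. The part of such RNA in the 112 calls was not tested. The count ran from 18 without library 2 labelled shPgk1 to 187 without library 1 labelled shPgk1, and was 32, 42 and 48 without shNC library 1, shNC library 3 and library 3 labelled shPgk1.

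**Figure D5:**
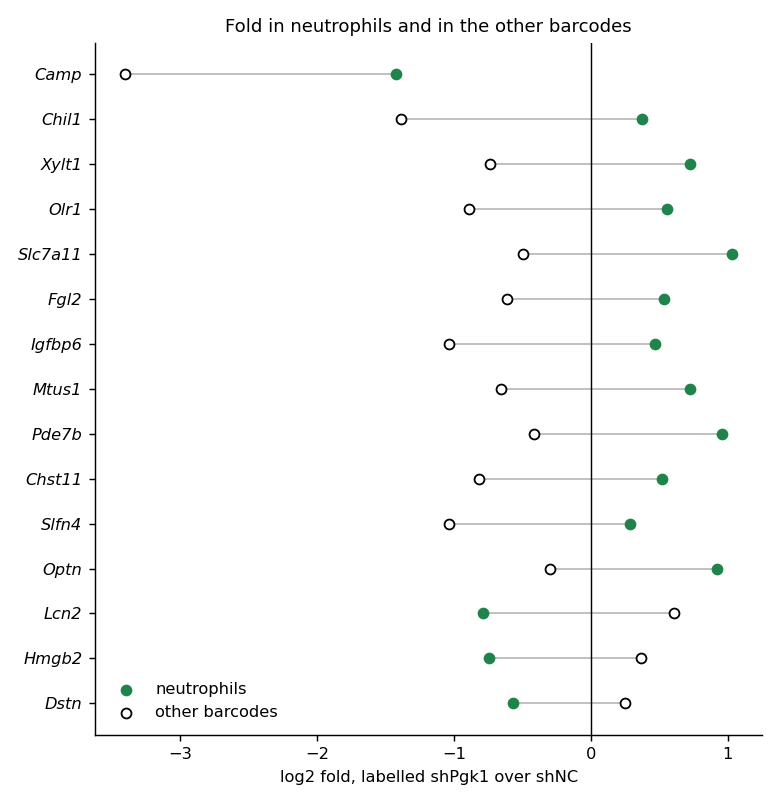
Log2 fold, labelled shPgk1 over shNC, in neutrophils (green) and in the other barcodes (open) for the 15 genes named by the rule. The upper 12 genes have the higher fold in neutrophils and the lower 3 the lower one. For Camp both folds lie below 0, at −1.42 and −3.40, while the other 14 genes have folds of opposite sign.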

How the data were processed

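The deposited matrices hold raw UMI counts per gene and barcode, made by the authors with PISA 0.12, per the file headers. Seurat 4 and the human build GRCh38 are named per the submitters' processing notes, although all gene names are mouse names, so the true build and the aligner were not given in the sources used here. No column of another sample was found (0). Library membership came from the sample titles.

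The first 2 conditions of the rule (300 genes, 20% mitochondrial UMIs) left out 643 barcodes. Barcode names are numbered within each library, so the 1234 to 1671 names that pairs of libraries share say nothing about shared cells. Doublets were scored with Scrublet in scanpy 1.11.5 (expected rate 0.06). Its own limit marked 1 barcode in 4 of the libraries, so a score of 0.25 served as an alternative only. Pairs of libraries differed beyond the counting noise of UMIs (chi-square per degree of freedom 24.4 to 278), and none was treated as a repeat. Cells add spread beyond this noise, so the check cannot tell whether libraries shared an animal or a cell suspension.

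Counts were summed per library and compared under R 4.3.3 with edgeR 4.0.16 and its quasi-likelihood test (robust, TMM scaling, filterByExpr, no term but the group). Adjustment was by Benjamini-Hochberg over every gene tested. The difference between folds was tested in 1 fit of 12 sums with library and population as terms. A standard error is the size of the fold over the root of its F statistic. Both fits were run on simulated data with known changes in neutrophils. The simulated other barcodes had no change between groups, so the run does not cover a difference of folds where those barcodes change too. Shares were compared by two-sided exact permutation tests in scipy 1.17.1. CPM are counts over the total of the same population (neutrophils, granule-poor or other barcodes) in a library, and pooled CPM use all libraries at once. Alternatives were other limits of the rule, doublet and depth filters, DESeq2 1.42.0, its size factors, no count filter, a replicate block and each library left out.

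Members, lists and tests were chosen with earlier results of these data known. Genes named are those of the rule and the given markers, Pgk1, the largest 12 rises and falls past the threshold with at least 50 CPM and no overlap (or the 10 smallest p where fewer passed), the 15 leading genes of each population with at least 200 CPM (10 CPM added to both sides of a ratio), and up to 5 abundant members of each of 16 lists. Cebpe, Csf3r, Cd274, Rela, Cxcr2, Arg2, C1qa and Gm14015 fall outside it and were chosen after their values were seen. Precision is limited by the 75157 UMIs of the smallest neutrophil sum.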

Additional observations from a re-analysis of the deposited data

Results flagged for a closer look

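For 15 genes the fold between libraries labelled shPgk1 and shNC differed between neutrophils and the other barcodes by the test of the difference itself (edgeR, adjusted p between 0.000463 and 0.0471). The difference, as log2 fold in neutrophils minus log2 fold in the other barcodes, was 1.64 for the chitinase-like gene Chil1, 1.59 for Xylt1, 1.55 for Olr1, which encodes the scavenger receptor LOX-1, and 1.51 for Slc7a11. It was 1.49 for Fgl2 and for the growth factor binding protein gene Igfbp6 (1.492 and 1.486), 1.48 for Mtus1, 1.41 for the phosphodiesterase gene Pde7b, 1.33 for Chst11, and 1.30 for Slfn4 and for the autophagy receptor gene Optn. It was −1.43 for Lcn2, −1.08 for Hmgb2 and −0.86 for the actin-severing gene Dstn. Lcn2 stood at 9210 CPM in granule-rich and 1142 CPM in granule-poor barcodes. The part of the granule-rich share in its difference was not tested. Camp, at 1.99, is a gene the states were split on and stood at 0.242 to 5.39 CPM in the other barcodes, so its value is a description only. Some further genes were also low in the other barcodes. Chil1 stood there at 0.385 to 2.90 CPM, Slfn4 at 1.25 to 6.505, Olr1 at 3.28 to 8.85 and Mtus1 at 4.09 to 9.41 CPM. The part of RNA from neutrophils in these levels was not tested.

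Within neutrophils none of the 15 passed on its own in edgeR, and DESeq2 called Camp and Slc7a11. The rule that named them asked for groups without overlap, so that property is not a result. Igfbp6, for example, stood at 373, 401 and 390.5 CPM in neutrophils labelled shPgk1 and at 229, 332 and 257 CPM in shNC neutrophils. In the other barcodes it stood at 10.2, 14.4 and 14.1 CPM labelled shPgk1 and at 27.1, 30.7 and 26.02 CPM in shNC. Olr1 stood at 106, 60.02 and 76.1 CPM in neutrophils labelled shPgk1 and at 58.1, 44.6 and 40.04 CPM in shNC neutrophils.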

How the results depend on the processing

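The share of neutrophils and the granule-rich share kept their direction under every alternative run, with differences of −2.57 to −1.67 and −5.61 to −2.86 points, and neither could pass 0.05 in this design. Leaving out 1 library gave −2.57 to −1.70 and −4.52 to −2.96 points. The count of genes that passed in neutrophils, 2 by edgeR, was 9 by DESeq2, 0 with DESeq2 size factors, 43 with no count filter, 0 at a calprotectin limit of 400 per 10000, 1 without barcodes under 1500 UMIs, and 0 to 9 with 1 library left out (9 without shNC library 2, 1 without shNC library 3 or library 3 labelled shPgk1). In granule-poor neutrophils the count of 0 was 4 by DESeq2, 29 with no count filter and 0 to 2 with 1 library left out (2 without shNC library 2, 1 without shNC library 3). Genes whose fold differed from the other barcodes numbered 18 to 187 with 1 library left out.

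Signs turned only for genes near 0. The log2 fold of Pgk1 in neutrophils was −0.091 and −0.072 at calprotectin limits of 100 and 400 and −0.022 with no count filter, and −0.10 to 0.18 with 1 library left out (below 0 without library 3 labelled shPgk1 and without shNC library 2, where it was −0.012). In granule-poor neutrophils it was −0.051 to 0.25, below 0 without the same 2 libraries (−0.0062 without shNC library 2). Retnlg was −0.25 to 0.061 in neutrophils (above 0 without library 1 labelled shPgk1 and, at 0.037, without shNC library 2), and in granule-poor neutrophils −0.0390 at a granule limit of 10 and −0.0389 without barcodes over 5000 UMIs. With 1 library left out G0s2 was −0.11 to 0.28 and in granule-poor neutrophils −0.015 to 0.40, and Wfdc21 there −0.094 to 0.28, each below 0 only without library 2 labelled shPgk1. The cause was not tested.

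Same-numbered libraries deviated together at correlations of 0.00989 to 0.0480, and libraries with different numbers at −0.0683 to 0.0496. Counting noise in shallow sums holds such correlations near 0, so they cannot decide whether the numbers pair the libraries. The labels name no shared batch, so the main tests used no pairing. With the number as a replicate block 18 genes passed in neutrophils and 5 in granule-poor ones, and the exact permutation test of the shares gave p = 0.25, the smallest it allows. A block was not added to the test of the difference, where library is already a term. The count of 112 there was 135 with DESeq2 size factors and 110 with no count filter. With no count filter the median fold in neutrophils was −0.245, a shift of −0.224. The 32 neutrophils of library 1 labelled shPgk1 limit all values.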

Other observations

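The stefin A and cystatin-like genes, inhibitors of cysteine proteases, varied strongly between replicates of 1 group. Stfa3 stood at 772, 754 and 319.5 CPM in neutrophils labelled shPgk1 and at 184, 1170 and 224 CPM in shNC neutrophils, so that shNC library 2 lay above every other library. In granule-poor neutrophils the same gene stood at 82.4, 216 and 344 CPM labelled shPgk1 and at 116, 135 and 128 CPM in shNC. Cstdc5 stood at 6693, 3402 and 2338 CPM in all neutrophils labelled shPgk1 and at 1790, 4652 and 2089 CPM in shNC neutrophils. Without the granule-rich barcodes it stood at 972, 1538 and 2315 CPM against 1413, 1397 and 1229 CPM. In library 1 labelled shPgk1 a single granule-rich barcode made the difference between both values.

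Gm14015, a transcript listed at 0 in all 3 neutrophil sums labelled shPgk1, stood at 71.6, 24.1 and 22.1 CPM in shNC neutrophils. In the other barcodes it stood at 0.0896, 0.208 and 0.0234 CPM labelled shPgk1 and at 37.2, 22.4 and 21.7 CPM in shNC.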
